A study of Homo sapiens with 94 samples.

Results

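Oxidative phosphorylation takes place in the inner mitochondrial membrane, where 4 respiratory complexes pass electrons from NADH and succinate to oxygen. Of these, complexes I, III and IV pump protons, and a further complex uses the returning protons to make ATP. Complex I oxidizes NADH, complex II oxidizes succinate and is also an enzyme of the TCA cycle, complex III passes electrons from ubiquinol to cytochrome c, complex IV (cytochrome c oxidase) reduces oxygen, and complex V is the ATP synthase. Most subunits are encoded in the nucleus and imported, and 13 are encoded in mitochondrial DNA, so each complex except complex II is built from the products of both genomes.

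The genes described here are the nuclear subunits of these complexes, chosen by symbol alone: every entry of the expression table whose symbol began with NDUFA, NDUFB, NDUFC, NDUFS or NDUFV and a number, with UQCR, with COX4 to COX8 or with ATP5, or was SDHA, SDHB, SDHC or SDHD. This gave 89 entries and 88 gene IDs of 20239 in the table. They comprised 36 of complex I, 5 of complex II, 9 of complex III, 19 of complex IV and 19 of complex V. NDUFA4 and NDUFA4L2 were counted with complex IV, in which NDUFA4 is now placed. Some IDs matched the rule without being subunits. DMAC2L and DMAC2 carried the older symbols ATP5S and ATP5SL, ATP5F1EP2 and ATP5MGL are copies of ATP synthase genes, UQCRHL is a near-identical copy of UQCRH, COX7A2L acts in supercomplexes, and a second ID shared the symbol SDHD. NDUFAB1, CYC1 and the mitochondrial genes lay outside the rule.

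RNA-seq had been performed on tumors of NCI-H226, an established human line of malignant pleural mesothelioma with a deletion of NF2, grown subcutaneously in the right flank of female SCID mice. When tumors had reached about 300 mm3, mice received 1 oral dose of K-975, a covalent inhibitor that occupies the palmitoylation pocket of TEAD transcription factors, at 30, 100 or 200 mg/kg, or vehicle, or were left untreated. Tumors were taken at 1 h, 3-6 h or 24 h, each in a study of its own, so that time and study cannot be told apart. Groups had 5 tumors, except vehicle at 24 h with 4, and at 3-6 h vehicle and each dose had 10 in 2 cage groups whose hour of sampling the labels do not give. The volume was 20 mL/kg for vehicle and the highest dose and 10 mL/kg for the others. All tumors came from a single cell line, at 1 h and 24 h each group was 1 cage group, and p-values measure the spread between tumors of separate animals. Of 94 libraries, 91 were kept. The other 3 had 702, 7196 and 8531 genes at an FPKM of 1 or more, against 11344 to 11665 in those kept, and belonged to 200 mg/kg at 1 h and to 30 and 100 mg/kg at 24 h. FPKM counts fragments for each unit of transcript length and divides by the total of the library. The table holds no counts, so the depth behind each value is unknown.

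Several subunits of complex IV come in a ubiquitous and a tissue form, and the forms differed widely in level. The promoters of the ubiquitous COX6A1 and COX8A, which were among the highly expressed members, are printed beside those of COX6A2, the form of heart and skeletal muscle, and COX8C, the form of testis, which were listed at or near 0. Each runs 5′ to 3′ from 250 bases before to 50 bases after the start in RefSeq (GRCh38.p14), at chr12:120437863-120438162 on the + strand, chr16:31428311-31428610 on the - strand, chr11:63974370-63974669 on the + strand and chr14:93346932-93347231 on the + strand. Capitals mark matches, on either strand, to the motifs of NRF1 (TGCGCA and GCATGCG), ETS factors such as GABPA (CCGGAAG) and ERR receptors (AAGGTCA), all of which are known regulators of nuclear genes for mitochondria.
COX6A1: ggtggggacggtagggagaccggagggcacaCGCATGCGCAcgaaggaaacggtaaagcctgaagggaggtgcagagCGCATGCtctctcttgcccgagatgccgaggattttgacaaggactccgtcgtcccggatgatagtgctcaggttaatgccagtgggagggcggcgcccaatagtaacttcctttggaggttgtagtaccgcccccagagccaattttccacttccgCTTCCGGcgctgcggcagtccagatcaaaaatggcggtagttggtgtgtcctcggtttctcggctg
COX6A2: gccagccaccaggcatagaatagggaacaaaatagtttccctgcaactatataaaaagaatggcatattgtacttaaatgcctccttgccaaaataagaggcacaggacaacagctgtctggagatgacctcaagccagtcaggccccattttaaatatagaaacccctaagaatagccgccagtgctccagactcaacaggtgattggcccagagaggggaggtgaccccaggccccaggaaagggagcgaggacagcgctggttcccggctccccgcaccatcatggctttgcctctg
COX8A: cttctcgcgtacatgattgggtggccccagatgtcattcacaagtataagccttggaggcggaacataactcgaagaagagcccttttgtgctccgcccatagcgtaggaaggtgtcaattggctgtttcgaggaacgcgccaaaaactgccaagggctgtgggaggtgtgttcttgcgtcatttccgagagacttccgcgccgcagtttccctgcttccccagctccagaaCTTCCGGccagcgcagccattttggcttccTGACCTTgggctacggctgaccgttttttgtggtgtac
COX8C: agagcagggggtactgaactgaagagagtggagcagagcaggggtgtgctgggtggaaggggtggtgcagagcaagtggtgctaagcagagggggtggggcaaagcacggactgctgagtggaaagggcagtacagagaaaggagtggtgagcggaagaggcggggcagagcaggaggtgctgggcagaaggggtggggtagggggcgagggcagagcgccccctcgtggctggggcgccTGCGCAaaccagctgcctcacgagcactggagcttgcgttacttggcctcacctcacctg

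The COX6A1 window held an ETS motif and both NRF1 motifs, which overlap in the run GCATGCGCA. After this run it held GCATGCG again on the other strand, printed as CGCATGC. The COX8A window held an ETS and an ERR motif, COX8C held 1 NRF1 motif, and COX6A2 held none of these letters. The 4 windows held 22, 5, 18 and 10 CpG dinucleotides in the order printed. The other pairs did not all follow these. Of other ubiquitous forms, COX4I1 and COX6B1 held an ETS motif, with 42 and 16 CpG. COX7A2, at a mean of 174.8 FPKM, and COX7B held 0 motifs, with 0 and 14 CpG. The alternative forms COX6B2 and COX7B2 also held 0 motifs, with 31 and 8 CpG. RefSeq promoters were found for 67 of the 87 member symbols. The ETS motif stood in 19 of them (28.36%, against 14.4% of 15281 promoters of genes in the table). TGCGCA stood in 20 (29.85% against 10.82%) and GCATGCG in 13 (19.4% against 5.15%). The ERR motif stood in 8 (11.94% against 3.135%) and AAGATGG, the motif of YY1, in 16 (23.88% against 6.446%). GGAATG, the motif of the TEAD factors that K-975 binds, stood in 5 (7.463% against 11.62%). The GC content was alike, with medians of 61% for members and 63% for genes of the table. The genes of the table were not matched to the members in level of expression, so the shares cannot be read as particular to the members. These are counts of letters in windows of 300 bases, and no binding was measured.

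Most subunits were expressed strongly in every tumor. Of the 88 IDs, 81 had a mean of at least 1 FPKM over the 91 libraries, 74 of at least 10 and 20 of at least 100. The 83 that passed the filter of 1 FPKM in at least 4 libraries had a median level of 53.9 FPKM, against 11.3 for all 13036 genes tested. Medians by complex ran from 29.0 FPKM in complex II through 51.2 in complex I, 53.9 in complex III and 77.1 in complex IV to 81.5 in complex V. Members are short genes, with a median coding length of 442 bases against 1407 for genes tested. Subunits of 1 complex spanned wide ranges of level, although most are present once in the assembled complex. Because libraries were enriched with probes, capture efficiency also enters each level.

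**Figure D1:**
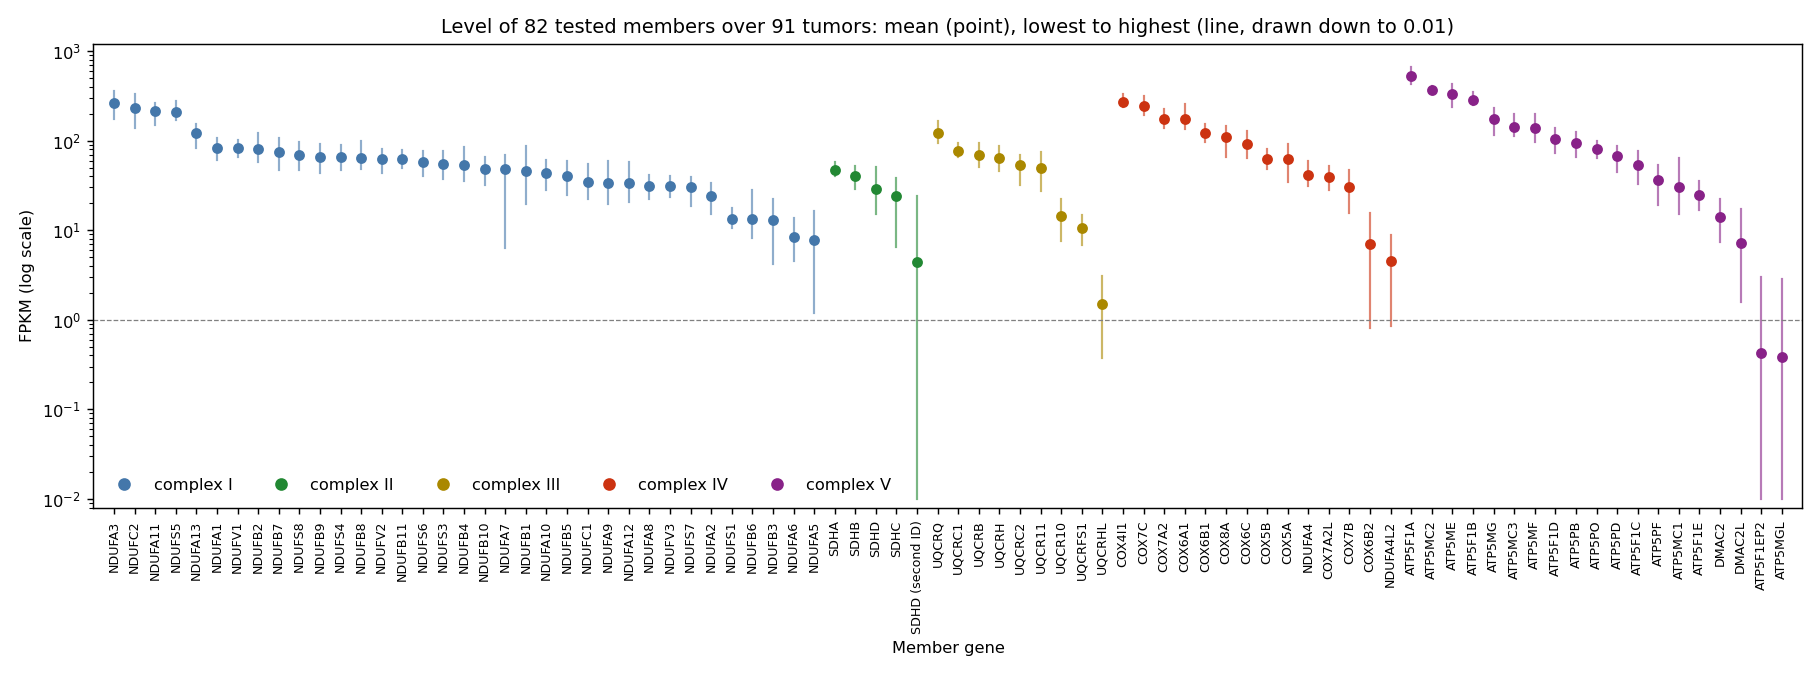
FPKM of 82 tested members over 91 libraries on a log axis, grouped by complex, with points for the mean and lines from the lowest to the highest library. Complex V reaches from 0.386 FPKM (ATP5MGL) to 530.3 (ATP5F1A), and complex II holds no mean above 46.8 (SDHA).

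In complex I, the catalytic core of the N module, which takes electrons from NADH, was led by NDUFV1, the flavin-binding subunit, at 82.6 ± 6.93 FPKM (SD, n = 91). NDUFV2 had 63.1 ± 7.33 and NDUFS1, the large iron-sulfur subunit, 13.4 ± 1.51, and the lowest library of NDUFV2 (43.1) was above the highest of NDUFS1 (17.7). In the Q module, which hands electrons to ubiquinone, levels lay closer together, with NDUFS8 at 69.6 ± 9.76, NDUFS3 at 54.4 ± 7.16 and NDUFS7 at 30.0 ± 3.80 FPKM. Ranges of neighbours in this order overlapped. The highest level of the complex was that of a supernumerary subunit, NDUFA3, at 264.2 ± 34.8 FPKM. Supernumerary subunits surround the core and are needed for its assembly or stability. NDUFC2 (232.2), NDUFA11 (214.9) and NDUFS5 (207.1) came next, and the lowest were NDUFA6 (8.46 ± 2.06) and NDUFA5 (7.80 ± 3.42).

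In complex II the catalytic subunits were above the anchors. SDHA, the flavoprotein that oxidizes succinate, had 46.8 ± 3.91 FPKM (SD, n = 91) and SDHB, which carries the iron-sulfur clusters, 40.3 ± 4.94. SDHC and SDHD, which hold the enzyme in the membrane, had 24.3 ± 6.63 and 29.0 ± 6.99. The ranges of neighbours in level overlapped, while the highest library of SDHC (38.7) was below the lowest of SDHA (39.9). The second ID with the symbol SDHD (ENSG00000255292) overlaps SDHD on chromosome 11 and had 4.39 ± 5.25 FPKM, so its reads and those of SDHD may be split between them. In complex III, UQCRQ was highest at 123.1 ± 15.8 FPKM. The core proteins UQCRC1 and UQCRC2 had 76.7 ± 5.56 and 53.9 ± 7.79, whereas UQCRFS1, the Rieske protein that carries the iron-sulfur cluster of the complex, had 10.6 ± 1.66. UQCRHL was at 1.51 FPKM, or 2.31% of its sum with UQCRH, and the pair may share reads.

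In complex IV the ubiquitous forms had the high levels. COX4I1, which assembles early with the mitochondrial core, had 273.2 ± 17.2 FPKM (SD, n = 91), COX7C 246.3 ± 23.7, COX7A2 174.8 ± 18.6, COX6A1 173.7 ± 19.01 and COX8A 110.7 ± 16.0. The alternative forms COX4I2, of lung and hypoxic cells, COX7A1, of muscle, COX7B2 and COX8C were listed at 0 in all 91 libraries, and COX6A2 was above 0 in 1 library, at 1.63 FPKM. A listed 0 sets no limit on expression here, since the table holds no counts, the libraries were enriched with probes, and mitochondrial genes that every cell uses were also listed at 0 in some libraries (MT-ND6 in 52, MT-ND3 in 33 and MT-ATP8 in 16 of 91). Of the alternative forms, those with a level in all 91 libraries were COX6B2, a form of testis, at 6.93 ± 3.11 FPKM, or 5.36% of its sum with COX6B1, and NDUFA4L2, which is induced by HIF-1 in hypoxia, at 4.52 ± 1.93 FPKM, or 9.79% of its sum with NDUFA4.

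Complex V held the highest level of all members. ATP5F1A (chr18:46080247-46104334), the alpha subunit of the catalytic F1 head, had 530.3 ± 53.9 FPKM (SD, n = 91), and ATP5F1B, the beta subunit that forms ATP, 286.4 ± 18.5. The central stalk subunits ATP5F1C, ATP5F1D and ATP5F1E had 53.6, 104.6 and 24.9 FPKM. The head holds 3 copies of alpha and beta and 1 copy of each stalk subunit, and the lowest libraries of ATP5F1A (425.2) and ATP5F1B (248.1) were above the highest of the stalk subunits (137.4, of ATP5F1D). The membrane ring consists of identical copies of subunit c, which 3 genes encode with different import sequences. ATP5MC2 gave 68.3 ± 2.92% of their summed FPKM, ATP5MC3 26.2 ± 2.50% and ATP5MC1 5.54 ± 1.40%, and the shares did not overlap in any library. The peripheral stalk ran from ATP5PF at 36.1 to ATP5PB at 93.0 FPKM, and the membrane subunit ATP5ME had 331.2 ± 36.0.

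Members varied little from tumor to tumor. The median coefficient of variation (CV, the SD divided by the mean) over 91 libraries was 0.136, against 0.241 for all genes tested, and 70 of 83 members were under the latter. The gap was smaller at a matched level. In the middle range of member levels, 30.1 to 92.4 FPKM, the median CV was 0.133 for 41 members and 0.144 for 2257 genes. The steadiest were ATP5MC2 (CV 0.0586), COX4I1 (0.0628), ATP5F1B (0.0647) and UQCRC1 (0.0725). The least steady of the genes expressed above 1 FPKM were the second SDHD ID (1.197), COX6B2 (0.448), NDUFA5 (0.438), NDUFA4L2 (0.426), DMAC2L (0.395) and UQCRHL (0.371).

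Subunits of 1 complex were no more correlated than subunits of different complexes. After the mean of each group was removed, the median Pearson correlation over 91 libraries was 0.056 for 938 pairs within a complex and 0.061 for 2465 pairs between complexes, against 0.0037 for pairs of all genes tested. The highest were NDUFB9 with ATP5F1B (0.55), ATP5F1A with ATP5F1B (0.54) and ATP5F1B with ATP5MC3 (0.53). The lowest were those of NDUFA4L2 with ATP5F1A (-0.45), ATP5F1B (-0.42) and NDUFB9 (-0.41). Summed by complex, the values were closer, from 0.30 (complexes II and III) to 0.68 (complexes I and V). All values of a library share its scaling, and these correlations are a description without a test.

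The summed level of the members had a CV of 4.58% over all libraries, across times and doses. No sum over genes matched in level was taken, so this CV cannot be read as particular to the members. All members together made 6991 ± 320 FPKM (SD, n = 91; 6274 to 8052), or 1.31% of the summed FPKM of a library, with complex I at 2457 ± 132, complex II at 145 ± 12.7, complex III at 462 ± 31.5, complex IV at 1440 ± 77.1 and complex V at 2488 ± 129. At 24 h the sum was 6728 ± 273 in 4 vehicle tumors and 6753 ± 303 in 5 tumors given 200 mg/kg, with ranges of 6333 to 6964 and 6275 to 7095. It was 6857 ± 327 in 5 untreated tumors, 7008 ± 217 in 4 given 30 mg/kg and 7107 ± 235 in 4 given 100 mg/kg. For 200 mg/kg against vehicle, complex I had 2399 ± 117 and 2425 ± 111, complex II 149 ± 21.96 and 152 ± 13.9, complex III 445 ± 10.3 and 433 ± 28.8, complex IV 1388 ± 98.5 and 1369 ± 28.7, and complex V 2373 ± 96.2 and 2348 ± 119. The ranges of these 2 groups overlapped in every complex. Against the same vehicle tumors (1328 to 1390 FPKM), complex IV was higher without overlap at 30 mg/kg (1399 to 1527) and at 100 mg/kg (1451 to 1497), and untreated tumors spanned both (1348 to 1541). The other sums overlapped between each dose and vehicle at all 3 times, and no sum was tested. In bulk tumors, fewer cells and less RNA per cell cannot be told apart.

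**Figure D2:**
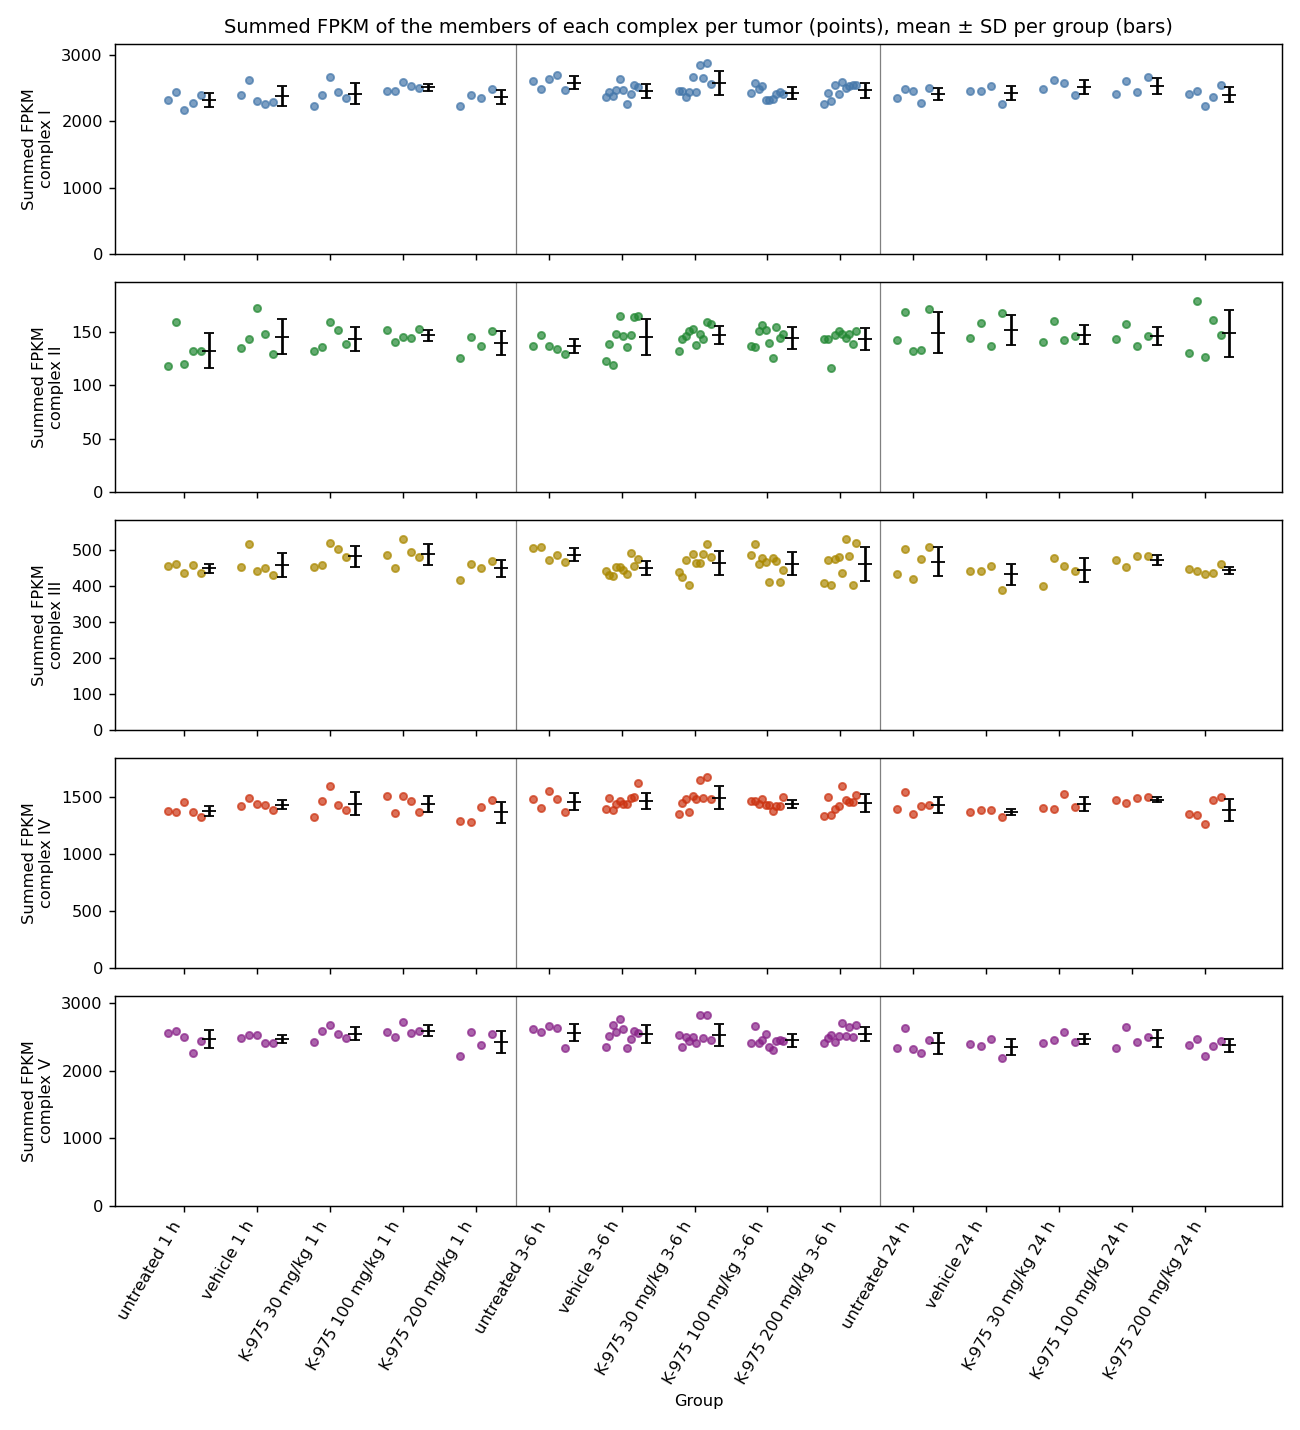
Summed FPKM of the members of each complex, 1 point per library, by study, treatment and dose, with the group mean and bars for the SD. Each dose overlaps vehicle in every complex and study, except complex IV at 24 h, where tumors given 30 or 100 mg/kg start at 1399 and 1451 FPKM and vehicle ends at 1390.

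Among the 9 comparisons of a dose with vehicle, that of 200 mg/kg at 24 h gave the most calls over all genes. It asks whether the members differed after K-975, and the part of TEAD in any difference was not tested. By limma with Benjamini-Hochberg adjustment over all 13036 genes, 7.41% of genes passed an adjusted p of 0.05, and 0 of 83 members did. At an unadjusted p under 0.05 by limma there were 5 members, or 6.02%, against 21.9% of all genes. The members were divided between the directions, with 45 of 83 higher (54.2%, against 55.2% of all genes), and a median log2 fold change of 0.02 against 0.04. For 68 members (81.9%, against 46.9% of all genes) the 95% interval of the difference lay within 1.5-fold in either direction, and for 78 within 2-fold. The genes of this background were not matched to the members in level. At 1 h, where 200 mg/kg gave 0 calls among all genes, the shares within 1.5-fold were 77.1% of members and 59.9% of all genes. Fold changes were taken after 1 FPKM had been added, so those of weakly expressed members are understated.

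**Figure D3:**
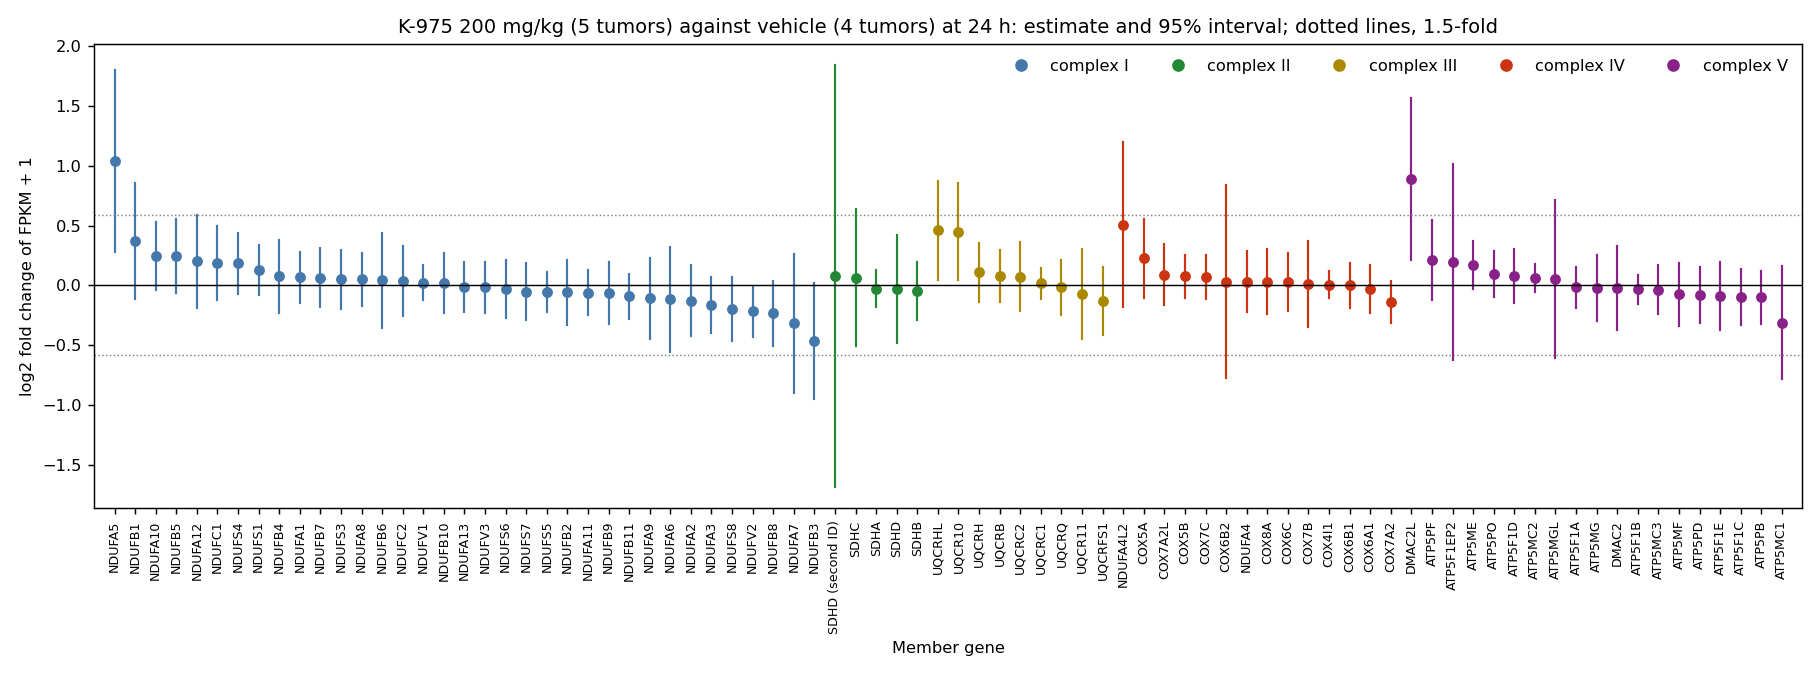
Log2 fold change (FPKM + 1 scale) of 82 tested members for 200 mg/kg against vehicle at 24 h, with 95% intervals, ordered by complex. Dotted lines mark 1.5-fold. Most intervals span 0, and the highest estimates are those of NDUFA5 (1.04) and DMAC2L (0.89).

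NDUFA5 (chr7:123536996-123558255), a supernumerary subunit beside the Q module of complex I, had the lowest p of the members. Its FPKM were 4.11, 6.42, 4.06 and 5.43 in the vehicle tumors and 12.2, 13.7, 4.78, 15.5 and 13.6 in those given 200 mg/kg. Of the 5 treated tumors 4 were above all vehicle tumors, and replicate 3 lay within their range. The log2 fold change was 1.04 (SE 0.38, 95% interval 0.28 to 1.80), with an adjusted p of 0.0786 in limma. Replicate 3 decided this call, for without it the value was 1.31 with an adjusted p of 0.0387 in limma, past the threshold. The 4 tumors given 100 mg/kg had 7.95, 8.44, 11.2 and 15.1, all above vehicle (log2 fold change 0.94, limma adjusted p 0.252). Those given 30 mg/kg had 7.09, 10.5, 3.20 and 4.80, and the untreated tumors 9.17, 4.88, 4.03, 8.09 and 4.82. Both sets overlapped vehicle. In the other studies NDUFA5 lay between 1.19 and 16.6 FPKM, so the treated tumors at 24 h did not leave the range seen there. The effect of 200 mg/kg was 1.102 higher on the log2 scale at 24 h than at 3-6 h (limma adjusted p 0.196).

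DMAC2L (chr14:50312325-50335558), a factor once taken for a subunit of the ATP synthase, came next. It had 6.36, 5.80, 4.10 and 4.98 FPKM with vehicle and 10.9, 9.42, 7.01, 15.0 and 12.1 with 200 mg/kg, without overlap (log2 fold change 0.89, SE 0.34, limma adjusted p 0.0945). In a fit of these 9 libraries alone the adjusted p in limma was 0.0439. Untreated tumors had 6.80, 7.87, 7.54, 7.84 and 4.27, which reached into the treated range.

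In complex III the small subunit UQCR10 and the copy UQCRHL stood highest. UQCR10 had 11.4, 13.2, 9.23 and 11.6 FPKM with vehicle and 12.9, 17.4, 16.3, 12.5 and 21.1 with 200 mg/kg, an overlap of values (0.45 on the log2 scale, limma adjusted p 0.175). UQCRHL had 1.34, 1.42, 0.832 and 1.26 against 1.66, 1.96, 1.49, 2.87 and 2.33, without overlap (0.46 on the log2 scale, limma adjusted p 0.169), near the filter of 1 FPKM. The remaining member with an unadjusted p under 0.05 was NDUFV2, which binds an iron-sulfur cluster in the N module, with 58.3, 73.9, 68.3 and 75.6 FPKM with vehicle against 55.1, 55.5, 60.5, 56.5 and 68.5 (-0.22 on the log2 scale, limma adjusted p 0.217). Vehicle and treated values of NDUFV2 overlapped. The lowest estimate of all members was that of NDUFB3, a membrane-arm subunit of complex I, at -0.47 (limma adjusted p 0.248), with 13.6, 12.5, 18.2 and 11.3 FPKM against 10.2, 10.7, 11.3, 10.8 and 6.09.

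**Figure D4:**
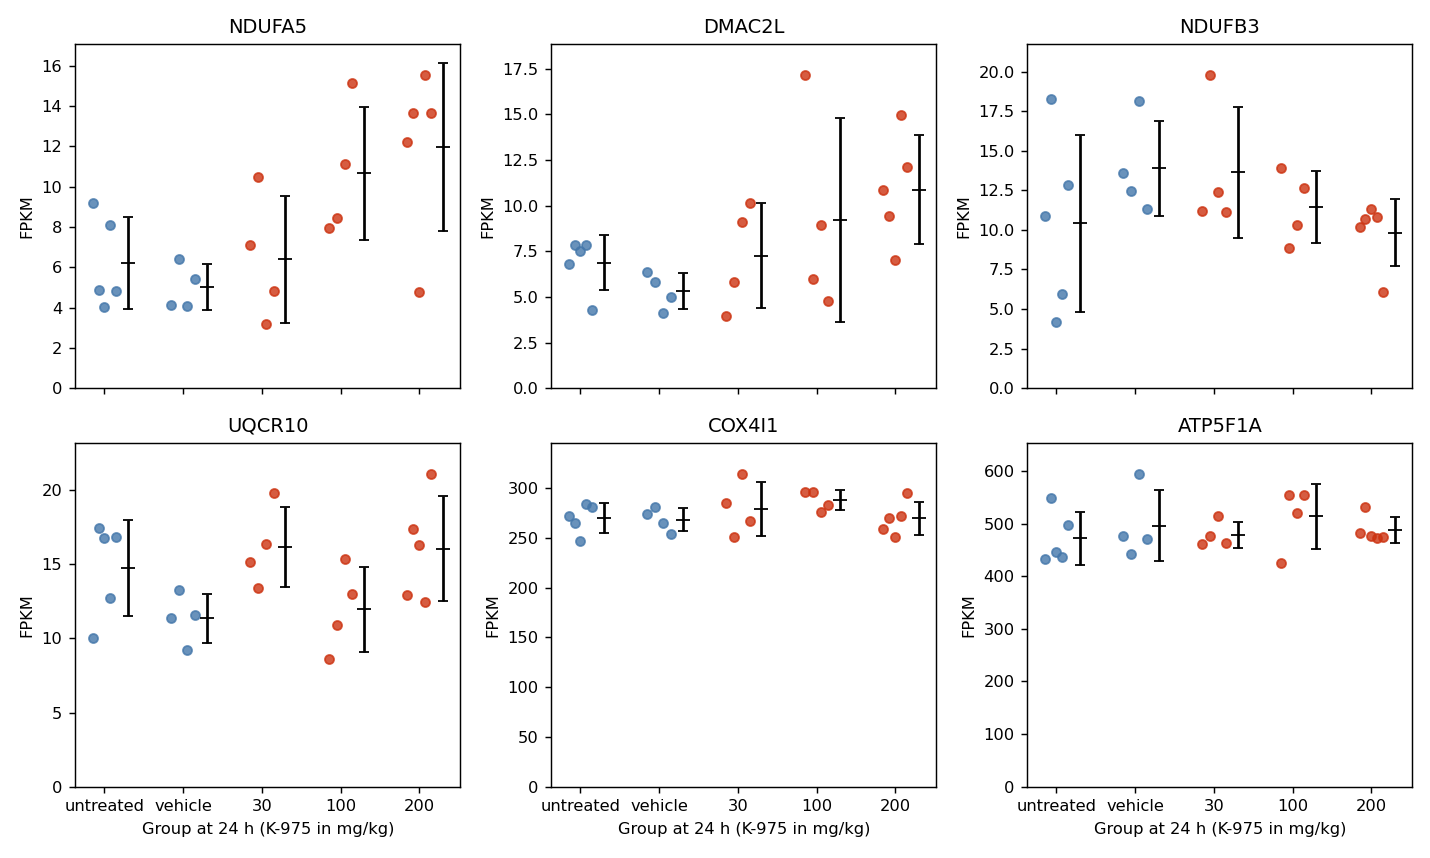
FPKM of 6 members in each tumor at 24 h, by treatment and dose, with the group mean and bars for the SD. The means of NDUFA5 and DMAC2L are highest at 200 mg/kg, whereas COX4I1 and ATP5F1A overlap in all groups.

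The abundant subunits gave the narrowest intervals. COX4I1 had 274, 281, 264 and 254 FPKM with vehicle and 259, 269.9, 251, 272 and 295 with 200 mg/kg, a difference of 0.01 on the log2 scale with a 95% interval of -0.11 to 0.12. ATP5F1A had 476, 443, 594 and 469.8 against 483, 532, 477, 472 and 475 (-0.02, interval -0.19 to 0.16), and its highest value was a vehicle tumor. ATP5F1B differed by -0.03 (interval -0.15 to 0.08) and ATP5MC2 by 0.06 (interval -0.06 to 0.18). SDHA had 49.5, 52.9, 42.2 and 45.1 FPKM with vehicle and 42.4, 48.5, 46.7, 45.1 and 49.6 with 200 mg/kg (-0.03, interval -0.18 to 0.12). The other subunits of complex II were as close, with SDHB at -0.04, SDHC at 0.06 and SDHD at -0.03, although the interval of SDHC was wide (-0.51 to 0.64). Of the tissue forms, NDUFA4L2 had 3.06, 3.83, 2.12 and 7.06 FPKM with vehicle and 4.69, 3.41, 8.84, 8.12 and 4.98 with 200 mg/kg (0.51 on the log2 scale), with overlap, and COX6B2 differed by 0.03 with an interval from -0.78 to 0.84. ATP5MC1, the least expressed gene of subunit c, had the lowest estimate of complex V at -0.31 (interval -0.79 to 0.16), and COX7A2 that of complex IV at -0.14 (interval -0.32 to 0.03).

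The lower doses at 24 h gave 0 calls among 83 members as well, against 1.12% of all genes at 100 mg/kg and 0.0384% at 30 mg/kg (limma, adjusted p under 0.05). At an unadjusted p under 0.05 by limma there were 5 members at 100 mg/kg (14.1% of all genes) and 4 at 30 mg/kg (10% of all genes). ATP5ME, a small membrane subunit at the dimer interface of the ATP synthase, had the lowest p at both doses. It had 305, 320.3, 278 and 237 FPKM with vehicle, 329, 388, 391 and 349 with 30 mg/kg (log2 fold change 0.36, limma adjusted p 0.191), and 318, 372, 359 and 347 with 100 mg/kg (0.30, limma adjusted p 0.161). The tumors given 30 mg/kg were all above vehicle, and 3 of 4 given 100 mg/kg were. At 200 mg/kg ATP5ME had 335, 337, 304, 295 and 330.2 (0.17 on the log2 scale), with overlap, so its order did not follow the dose, and untreated tumors ranged from 275 to 381. NDUFA12, a subunit at the interface of the arms of complex I, had 21.0, 24.7, 30.9 and 28.9 with vehicle and 31.4, 35.1, 41.3 and 37.3 with 100 mg/kg, without overlap, while untreated tumors ranged from 20.8 to 52.2. The 3 doses share their vehicle tumors, so these comparisons are not independent.

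In the earlier studies 0 of 83 members passed in any comparison with vehicle (limma, adjusted p under 0.05). At 1 h, 0% of all genes passed at 30 and 200 mg/kg and 0.00767% at 100 mg/kg, and 4, 4 and 8 members had an unadjusted p under 0.05 by limma at 30, 100 and 200 mg/kg, against 4.38%, 4.97% and 3.34% of all genes. At 3-6 h, 0.0153%, 0.43% and 0.069% of all genes passed at 30, 100 and 200 mg/kg, and 3, 7 and 3 members had an unadjusted p under 0.05 by limma, against 7.03%, 10.3% and 7.23% of all genes. The lowest adjusted p was that of ATP5PF, coupling factor 6 of the peripheral stalk, at 100 mg/kg and 3-6 h (0.102 in limma). Medians of the members' log2 fold changes lay between -0.03 and 0.05 over these 6 comparisons.

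Vehicle against untreated tumors gave 0 calls among members and among all genes (0%) in all 3 studies by limma, with 3, 4 and 3 members at an unadjusted p under 0.05 at 1 h, 3-6 h and 24 h, against 4.73%, 4.83% and 4.2% of all genes. The difference in the effect of 200 mg/kg between studies was tested directly. It gave 0 members by limma for 24 h minus 1 h (0.583% of all genes), 24 h minus 3-6 h (1.72%) and 3-6 h minus 1 h (0%), with 4, 4 and 3 members at an unadjusted p under 0.05, against 13.2%, 16.3% and 4.63% of all genes. Cage groups of 1 treatment within the 3-6 h study gave 0 members by limma too, with 3, 10, 8 and 11 at an unadjusted p under 0.05 for vehicle, 200, 100 and 30 mg/kg (9.96%, 7.09%, 7.5% and 6.36% of all genes), while 0.33%, 0.0153%, 0.046% and 0% of all genes passed. Between the cage groups of 30 mg/kg, 65 of 83 members (78.3%) were higher in cage group 9 than in cage group 8, against 54.9% of all genes, with summed levels of 7464 ± 497 and 6962 ± 207 FPKM (SD, n = 5 each, 6936 to 8052 and 6794 to 7311). Replicates 2 to 5 of cage group 9 also stood apart in composition. Their 10 highest genes made 14.2% to 15.6% of the summed FPKM, against 17.2% in replicate 1 and 16.2% to 16.7% in cage group 8, and replicates 2 and 4 held the sums of 7930 and 8052. The part of this in the count was not tested.

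Untreated tumors were compared between the 3 studies to give the baseline of the members. For 3-6 h minus 1 h, 67 of 83 members (80.7%, against 57.8% of all genes) were higher, with a median log2 difference of 0.10 against 0.04, and 0 passed (0.0997% of all genes; limma, 11 members at an unadjusted p under 0.05, against 9.25% of all genes). Summed levels were 7231 ± 288 and 6748 ± 195 FPKM (SD, n = 5 each), with ranges of 6780 to 7461 and 6488 to 7016 that overlapped. For 24 h minus 3-6 h, 30 of 83 were higher (36.1%, against 42.1% of all genes), with a median log2 difference of -0.06 against -0.04, and 0 passed against 4.36% of all genes (limma, 7 members at an unadjusted p under 0.05, against 17.9% of all genes). ATP5F1A came closest, with 433, 548, 446, 436 and 498 FPKM at 24 h and 567, 584, 619, 559.7 and 480.1 at 3-6 h (log2 difference -0.25, limma adjusted p 0.0581), a difference with overlap. For 24 h minus 1 h, 0 members passed against 0.00767% of all genes (limma, 7 at an unadjusted p under 0.05, against 10% of all genes). Each study had its own animals and sampling time, which cannot be told apart here.

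The 13 subunits encoded in mitochondrial DNA summed to far less than the nuclear members, with a median of 97.6 FPKM over 91 libraries and a range of 49.0 to 666. This is the level in libraries enriched with probes, and MT-ATP8 had the highest mean, 37.1 FPKM, while MT-ND6 was at 0 in 52 libraries. After these values were seen, the high libraries proved to share a feature of their labels. In the 1 h study the 3 libraries whose serial number in the title is a multiple of 8 had 494 to 666 FPKM, against 55.8 to 118 in the other 21. In the 3-6 h study 5 such libraries had 431 to 597, against 49.0 to 145 in 40. In the 24 h study the 2 such libraries kept had 100.2 and 159.8, within the range of the other 20 (77.9 to 196). The third, number 136, was the shallow library of 30 mg/kg, which had been left out and was listed at 0 for all 13 genes. The sums of nuclear members in these libraries, 6886 to 7164 at 1 h and 6794 to 7278 at 3-6 h, lay inside those of the others (6274 to 7627 and 6544 to 8052). No mitochondrial gene passed in any comparison with vehicle, with or without these libraries (0 of 13 by limma, and at most 2 at an unadjusted p under 0.05). The part of the position of a library in these values was not tested.

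**Figure D5:**
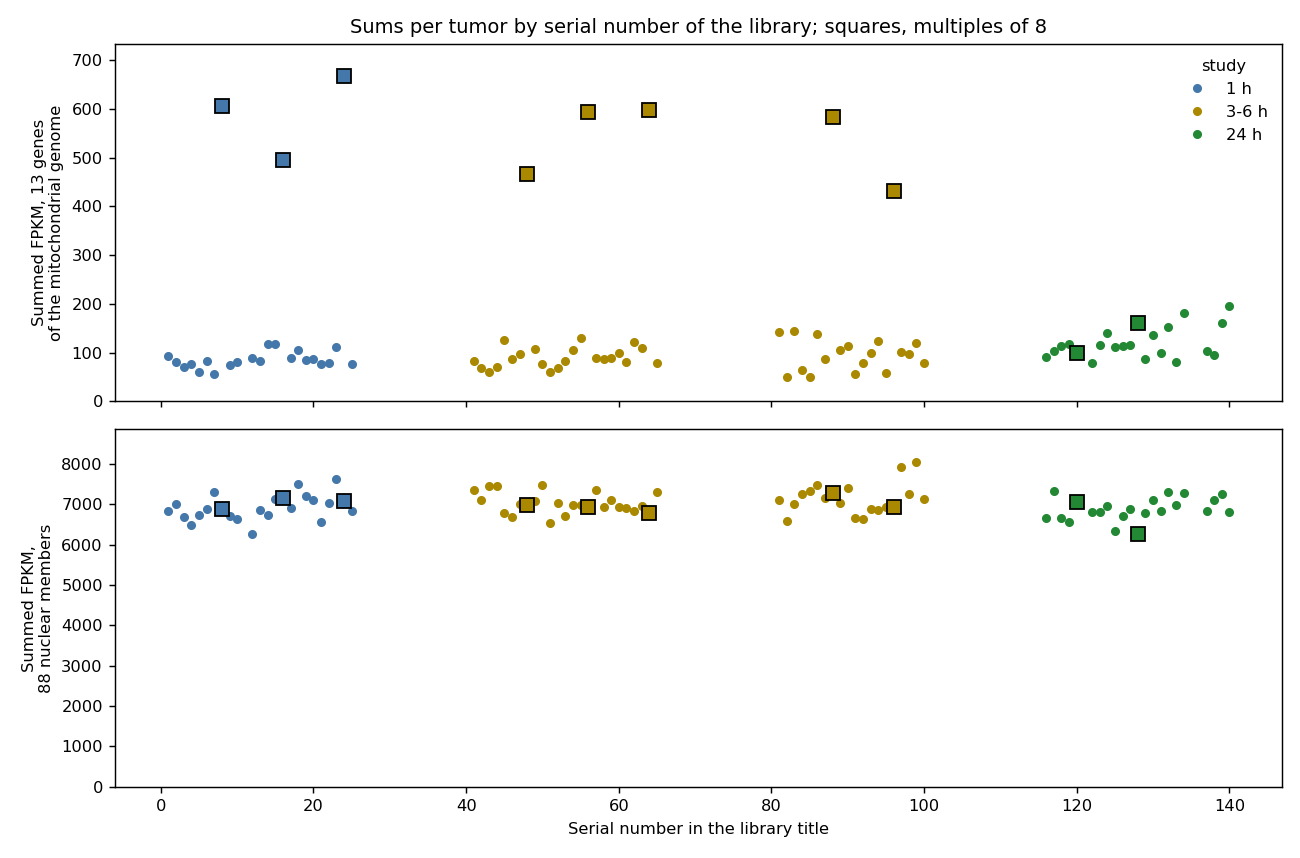
Summed FPKM of the 13 mitochondrially encoded subunits (upper panel) and of the 88 nuclear members (lower panel) per library against the serial number in the title, coloured by study, with squares for multiples of 8. In the upper panel at 1 h and 3-6 h the 8 libraries drawn as squares lie at 431 FPKM or above and all others at 145 or below.

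Genes that serve the complexes without being members were compared at 200 mg/kg and 24 h by limma with Benjamini-Hochberg adjustment over all genes. Assembly factors gave 0 calls, with 0 of 14 for complex I and 0 of 31 for complexes II to V, against 7.41% of all genes (1 and 2 at an unadjusted p under 0.05, against 21.9% of all genes, NDUFAF2 among them at -0.46). Regulators of mitochondrial biogenesis gave 0 of 14, with 4 at an unadjusted p under 0.05, a share near the 21.9% of all genes. Among these, GABPA, the ETS factor named with the promoters, was at 0.43 (adjusted p 0.0502) and PPRC1, a relative of the co-activator PGC-1 alpha, at -0.27 (adjusted p 0.0677). Single libraries decided these calls, for GABPA passed without vehicle replicate 4 (0.0313 in limma) and PPRC1 without treated replicate 2 (0.0222). Of NDUFAB1, CYC1 and CYCS 0 of 3 passed, with 0 at an unadjusted p under 0.05. ATP5IF1, the inhibitor of the ATP synthase, had 55.5 ± 4.04 FPKM in 4 vehicle tumors and 54.1 ± 7.68 in 5 treated tumors (-0.05 on the log2 scale, interval -0.30 to 0.21).

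Of 17 genes of pyruvate dehydrogenase and the TCA cycle, 1 passed at 200 mg/kg and 24 h, a share no higher than the 7.41% of all genes. This gene, IDH2, the NADP-dependent isocitrate dehydrogenase of mitochondria, fell from 32.6 ± 5.07 FPKM (SD, n = 4; 27.5 to 39.0) to 18.99 ± 4.38 (SD, n = 5; 12.7 to 23.3), without overlap, a log2 fold change of -0.77 (SE 0.15, limma adjusted p 0.000304). At 100 mg/kg it fell by 0.60 on the log2 scale (limma adjusted p 0.0274). Succinate dehydrogenase, the enzyme shared by the cycle and the chain, gave no call. Some markers of the tumor cells themselves moved in the same comparison. Of 10 genes chosen as markers of the mesothelioma line, 3 rose (against 7.41% of all genes called in either direction), CALB2 by 0.39, MSLN by 0.40 and KRT19 by 0.32 on the log2 scale (limma adjusted p 0.0198, 0.0414 and 0.0314), and the summed level of the list was 3751 to 4624 FPKM in treated and 3243 to 3479 in vehicle tumors. Untreated tumors of this study had 2856 to 4381, which spans the vehicle values and reaches into the treated range. These 3 calls lay near the threshold, and leaving out 1 library often ended them, although the estimates stayed above 0. They ranged from 0.344 to 0.473 for CALB2, 0.343 to 0.502 for MSLN and 0.241 to 0.359 for KRT19. Of the 9 libraries left out in turn, 4 ended the call of CALB2 (vehicle replicates 1 and 3, treated replicates 1 and 5; limma adjusted p up to 0.0851), 6 that of KRT19 (all 4 vehicle libraries, treated replicates 1 and 5; up to 0.167) and 7 that of MSLN (all but vehicle replicate 4 and treated replicate 2; up to 0.151). IDH2 passed each time (limma adjusted p 0.000151 to 0.00572). Markers for cells of the mouse host could be read only as far as mouse reads were assigned to human genes. They do not measure host cell content. Lists for leukocytes, endothelium, fibroblasts, muscle, adipocytes and erythroid cells gave 0 calls by limma, with 1 gene at an unadjusted p under 0.05. Their summed levels overlapped between the groups, at 129 to 208 FPKM with 200 mg/kg against 146 to 223 with vehicle for leukocytes, 477 to 969.7 against 481 to 594 for fibroblasts and 27.1 to 92.5 against 31.0 to 67.9 for endothelium. Adipocyte markers reached at most 0.403 FPKM, erythroid markers 1.85 and muscle markers 1.96. The part of these differences in the result was not tested.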

How the data were processed

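Libraries had been made from RNA of NCI-H226 xenografts with the KAPA RNA HyperPrep and HyperCap kits, which enrich transcripts with probes. The authors deposited FPKM per transcript entry and library. The submitters' processing notes name STAR and GRCh38, and the quantifier is not given in the sources used here. Of 20555 entries, 316 repeats of a gene ID were left out and 32 blank cells were read as 0. No per-library column was unused (0). Depth is unknown, since there are no counts. Libraries with fewer than 10000 genes at 1 FPKM or more (3 of 94) were left out.

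Genes at 1 FPKM or more in at least 4 libraries (13036) were tested on log2(FPKM + 1) with limma 3.58.1 in R 4.3.3 (trend and robust), with 1 coefficient for each of 19 groups and Benjamini-Hochberg adjustment over all genes per comparison (22 comparisons, threshold 0.05). At 3-6 h the cage groups of a treatment were averaged. The procedure was tested on simulated data. Levels and correlations were computed in Python 3.11.15 with pandas 2.3.3. Promoters and their coordinates came from RefSeq, gene coordinates from the table.

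The members and lists were chosen with earlier results of these data known. Named were members past the threshold, the highest and lowest member of each complex by level, by fold change at 200 mg/kg and 24 h and by CV, complex II, isoform pairs, ATP5IF1, and up to 3 genes of each other list. Members outside this rule (such as NDUFV2, UQCR10, ATP5ME, ATP5PF and NDUFA12) were named after their values were seen. Of the members, 1 is counted but not reported here by itself. Alternatives changed the pseudocount, the filter, the scaling, the samples of the fit and the libraries kept.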

Additional observations from a re-analysis of the deposited data

Results flagged for a closer look

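Groups of 4 or 5 tumors were searched, for 1 sum or gene at a time, for a tumor far from the others of its group. The 150 searches shared tumors and so were not independent. Such values were found in 15 of them (10%), where chance gives about 1 in 20. Sums of mitochondrially encoded subunits made up 8 of these 15 values, each the highest of its group. They were 605.9 FPKM in vehicle replicate 3, 494.2 in 100 mg/kg replicate 1 and 666.1 in 30 mg/kg replicate 4 at 1 h. At 3-6 h they were 467.1 in vehicle cage group 2 replicate 3, 594 in 100 mg/kg cage group 6 replicate 1, 583.8 in 200 mg/kg cage group 5 replicate 3, and 597.2 and 430.9 in 30 mg/kg cage group 8 replicate 4 and cage group 9 replicate 1. The next tumor of each of these groups was at 138 FPKM or below. The rate of 10% includes these sums and was not taken for nuclear values alone. The nuclear values that follow therefore cannot be read as more than chance gives.

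Of the nuclear subunits, complex II summed to 116.3 FPKM in 200 mg/kg cage group 4 replicate 3 (the others 143 to 152), complex III to 517.5 in vehicle replicate 2 at 1 h (430.2 to 453), and complex IV to 1527 in 30 mg/kg replicate 4 at 24 h (1399 to 1414). Single genes at 24 h were NDUFB3 at 6.089 FPKM in 200 mg/kg replicate 5 (10.2 to 11.3), SDHB at 48.12 in vehicle replicate 2 (37.3 to 38.4), ATP5F1A at 531.6 in 200 mg/kg replicate 2 (472 to 483), and ATP5MGL at 2.017 in 200 mg/kg replicate 5 (0 to 0.311).

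The 3 libraries left out held members above every vehicle library of their study. They had 8531, 7196 and 702 genes at 1 FPKM or more, in the order given below, so their summed FPKM fell on fewer genes. The share of all genes above vehicle is not given here, so the counts cannot be read as particular to the members. In 200 mg/kg replicate 1 at 1 h there were 49 of 73 members above 0, led by NDUFA6 at 50.6 FPKM (highest vehicle library 10.9). In 100 mg/kg replicate 5 at 24 h there were 35 of 58, led by NDUFA12 at 361 (30.9), and in 30 mg/kg replicate 1 at 24 h 3 of 3, led by NDUFB8 at 4396 (80.3).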

How the results depend on the processing

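The number of members past the threshold was 0 in every comparison and again 0 for 170 of 176 alternative values, and medians of the members stayed within the SD between libraries for 70 of 72. Exceptions were 1 member at 30 mg/kg and 1 h (the second SDHD ID) and 1 at 200 mg/kg and 24 h (DMAC2L) with only the groups compared in the fit, 1 at 200 mg/kg and 24 h (NDUFA5, 1.31, limma adjusted p 0.043) without libraries of a serial number divisible by 8, a setting chosen after seeing the data, and 1 (ATP5F1A) for untreated 24 h minus 3-6 h with quantile normalization and with rescaling to summed FPKM. For 200 mg/kg against vehicle at 24 h, the only library with a serial number divisible by 8 was 200 mg/kg replicate 3. That setting and the fit without this replicate therefore leave out the same tumor of this comparison. With the 3 shallow libraries included, 32 members passed at 30 mg/kg and 24 h, where the median became -1.09, and the median at 200 mg/kg and 1 h became 0.044. The shallow library of 30 mg/kg has 3 members above 0 and only 702 genes at 1 FPKM or more. The share of all genes called in this setting is not given here, so the 32 calls cannot be read as particular to the members. The calls of IDH2, CALB2, MSLN and KRT19 were lost with these libraries (limma adjusted p 1 each), those of CALB2, KRT19 and MSLN with only the groups compared (0.0647, 0.0797 and 0.0855), and that of MSLN without a filter (0.054) and without libraries of a serial number divisible by 8 (0.0847). GABPA passed with a pseudocount of 0.1, with rescaling (0.0499 each) and without trend and robust (0.0432). Leaving out 1 library at a time gave 0 to 1 members at 200 mg/kg and 24 h (NDUFA5, without 200 mg/kg replicate 3), 0 to 1 at 100 mg/kg and 3-6 h (ATP5PF, without vehicle cage group 3 replicate 2 or 100 mg/kg cage group 7 replicate 1) and 0 to 3 for untreated 24 h minus 3-6 h (ATP5F1A, NDUFA1 and NDUFB3 without 24 h replicate 2, ATP5F1A without 3-6 h replicate 5).

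Log2 fold changes near 0 at 200 mg/kg and 24 h changed sign under some settings, and the cause was not tested. Quantile normalization gave 0.047 for UQCRQ, -0.061 for COX6B2, 0.032 for ATP5F1A, -0.028 for ATP5MGL, 0.016 for COX6A1, 0.070 for COX6B1, 0.016 for ATP5F1B and 0.034 for ATP5MC3. A pseudocount of 0.1 gave -0.070 for COX6B2 and -0.12 for ATP5MGL, and rescaling gave 0.0092 for COX6B1. Without the libraries of a serial number divisible by 8, values were 0.016 for SDHB, 0.099 for SDHD, 0.067 for COX6B1, 0.0038 for ATP5F1B, -0.0046 for COX7B and 0.027 for ATP5MC3. In this comparison that setting leaves out only 200 mg/kg replicate 3, which is also among the libraries left out in turn. Leaving out 1 library at a time gave ranges of -0.067 to 0.075 for ATP5F1A, -0.064 to 0.0038 for ATP5F1B, -0.095 to 0.044 for ATP5IF1, -0.082 to 0.027 for ATP5MC3, -0.24 to 0.17 for ATP5MGL, -0.028 to 0.030 for COX4I1, -0.081 to 0.0020 for COX6A1, -0.076 to 0.067 for COX6B1, -0.19 to 0.51 for COX6B2, -0.11 to 0.21 for COX7B, -0.057 to 0.087 for COX8A, -0.043 to 0.092 for NDUFA4, -0.011 to 0.073 for NDUFV1, -0.080 to 0.026 for SDHA, -0.14 to 0.039 for SDHB, -0.093 to 0.24 for SDHC, -0.15 to 0.099 for SDHD, -0.90 to 0.66 for the second SDHD ID, -0.044 to 0.080 for UQCRC1 and -0.096 to 0.087 for UQCRQ. No paired analysis was possible because the labels number no replicates (the numbers used here follow accession order) and each tumor came from its own animal. The FPKM table gives no depth, so no limit of detection could be set for genes listed at 0.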
